A study of Mus musculus with 48 samples.

Results

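Genes that mark the early stages of the oligodendrocyte lineage were followed in the nucleus accumbens shell, the ventromedial part of the striatum, of 48 mice. There are 8 of them among the 37620 rows of the gene table: Pdgfra, Cspg4, Olig1, Olig2, Sox10, Gpr17, Bcas1 and Enpp6. They were taken by name as a fixed list of precursor-stage markers, with no filter on their values, and each name matched 1 row. Earlier results of these data were known when the list was chosen. The mice came from the heterogeneous stock-collaborative cross (HS-CC), an outbred stock, and had been bred over 4 generations for high or for low ethanol preference. The study compared gene expression in these lines, and the series title names the effect of that selection as its question. The design has 4 groups of 12 mice, written here as High F, High M, Low F and Low M for the line and the gender given in the labels. No treatment is recorded, all groups share the stock, and each line is 1 selected population. Age, family and litter are not given in the sources used here, so the mice of a line may be related and the p-values measure only the spread between these mice. The shell was cut out by laser microdissection and poly(A) RNA was sequenced.

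Oligodendrocyte precursor cells are spread through the adult grey and white matter, divide slowly and give rise to the cells that make myelin. PDGF receptor alpha, encoded by Pdgfra, binds platelet-derived growth factor and keeps these cells dividing, and the proteoglycan NG2, encoded by Cspg4, sits on their surface. Olig1, Olig2 and Sox10 are transcription factors of the whole lineage, mature cells included, while Gpr17, Bcas1 and Enpp6 are known for cells that have left the precursor state and are about to make myelin. Pdgfra is also made by leptomeningeal fibroblasts and Cspg4 by pericytes, and this is background for the marker lists used below. In bulk tissue, fewer cells of a type and less RNA per cell cannot be told apart.

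Positions of the genes are in the mouse build mm9, as the first bases of the exons in the deposited exon table. Pdgfra is on chromosome 5, plus strand, with 24 exons listed that start between 75548316 and 75590978. Cspg4 is on chromosome 9, plus strand, with 10 exons that start between 56712911 and 56744863. Olig1 and Olig2 are neighbours on the plus strand of chromosome 16, Olig2 with 2 exons starting at 91225795 and 91226590 and Olig1 with a single exon at 91270014. Sox10 has 4 exons on the minus strand of chromosome 15, starting between 78985343 and 78994712, and Bcas1 has 17 on the minus strand of chromosome 2, between 170172491 and 170253246. Enpp6 has 8 exons on the plus strand of chromosome 8, between 48072279 and 48178348, and Gpr17 has 2 on a minus strand. All 8 are annotated as protein-coding in GENCODE M21.

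The RefSeq promoter table holds 4 of the 8 genes, namely Pdgfra, Cspg4, Olig2 and Enpp6. Those of Pdgfra, Cspg4 and Olig2 are shown because the values of Olig2 varied between mice together with those of both, as described further on. Each runs 5′ to 3′ on the plus strand in build GRCm38.p6 and ends before the first transcribed base that RefSeq or GENCODE annotates. Pdgfra is chr5:75152001-75152250, Cspg4 is chr9:56864854-56865032 and Olig2 is chr16:91225300-91225456. Capitals mark matches to CANNTG, the E-box letters read by basic helix-loop-helix factors such as Olig2, or to ACAAT, letters read by Sox factors, on either strand.
Pdgfra: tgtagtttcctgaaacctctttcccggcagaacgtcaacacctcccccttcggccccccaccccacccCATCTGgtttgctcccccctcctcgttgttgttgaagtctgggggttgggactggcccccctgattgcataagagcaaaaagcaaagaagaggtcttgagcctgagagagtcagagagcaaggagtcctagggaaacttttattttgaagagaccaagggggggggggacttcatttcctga
Cspg4: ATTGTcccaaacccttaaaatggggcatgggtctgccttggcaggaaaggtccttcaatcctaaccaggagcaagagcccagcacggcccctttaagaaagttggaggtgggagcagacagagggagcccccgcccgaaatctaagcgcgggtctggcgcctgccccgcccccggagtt
Olig2: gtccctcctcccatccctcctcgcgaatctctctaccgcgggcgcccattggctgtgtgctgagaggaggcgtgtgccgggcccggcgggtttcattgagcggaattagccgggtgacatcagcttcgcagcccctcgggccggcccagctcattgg
The Pdgfra window held 1 E-box match, as did 66.2% of the 32544 promoters in windows of 250 bases. The Cspg4 window held 1 ACAAT match, on the minus strand, as did 21.3% of promoters in windows of 179 bases. The Olig2 window of 157 bases held neither set of letters, which 50.8% and 19.1% of promoters of that length did hold. Its GC content was 66.9%, against 54.4% for Pdgfra and 60.3% for Cspg4, and the median promoter had 51.0% to 52.4% over these window lengths. A match is a run of letters and not a measured binding site.

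Normalised read counts, as the authors deposited them after rounding to whole numbers, totalled 13579559 to 14561911 per library, so that 1 ppm, a part per 1000000, corresponded to 14.055 of these units. Between 19708 and 20888 genes were above 0 in a library. Markers of medium spiny neurons, the main neurons of the striatum, summed to between 101207 and 155055 per library. Markers of cortical pyramidal neurons, which the shell should lack, ran from 460 to 6009, and High M replicate 1, Low M replicate 6 and High M replicate 10 had the highest mean of them. Results on the 8 genes were repeated without these 3 libraries. High M replicate 1 also had the lowest median correlation with the other libraries and the lowest share of its exon signal in last exons, 46.8%, against up to 59.6% elsewhere.

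Per kilobase of exon, the transcription factor Olig1 had the highest level of the 8 genes and Enpp6 the lowest. Over the 48 mice the normalised count per kilobase was 368 ± 54.1 (SD) for Olig1, 143 ± 23.1 for Bcas1, 107 ± 19.5 for Gpr17, 76.0 ± 14.0 for Olig2, 73.7 ± 10.8 for Sox10, 34.8 ± 6.43 for Pdgfra, 17.4 ± 2.53 for Cspg4 and 1.91 ± 0.768 for Enpp6. Olig1 lay above Bcas1 in all 48 libraries and their ranges did not overlap. Olig2 and Sox10 could not be placed in order, since Olig2 was the higher of the pair in 25 of 48 libraries. Bcas1 exceeded Gpr17 in 43 and Gpr17 exceeded Olig2 in 47 of them, with overlapping ranges. The receptor Pdgfra lay above the proteoglycan Cspg4 in all 48.

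These levels rested mostly on the last exon, which holds the 3′ untranslated region. The last exon carried 99.8% of the exon signal of Gpr17, 99.2% of Olig2, 88.9% of Sox10, 86.7% of Cspg4 and 83.9% of Pdgfra, but 60.0% of Bcas1 and 37.6% of Enpp6. By length it held most of the exon bases of Gpr17 (5019 of 5195) and Olig2 (2333 of 2530). In Pdgfra it held 3263 of 10024 and in Cspg4 2815 of 11931. Over the other exons alone the count per kilobase was 82.7 ± 14.9 for Bcas1, 19.0 ± 9.37 for Sox10, 8.29 ± 4.10 for Pdgfra, 8.04 ± 7.68 for Olig2, 7.69 ± 9.84 for Gpr17, 3.03 ± 1.76 for Cspg4 and 2.93 ± 1.54 for Enpp6. The order therefore changed below Bcas1, and Olig1, with 1 exon, had no such value. For Gpr17 and Olig2 it rests on 1 short exon each, with mean counts of only 1.35 and 1.58. Enpp6, an ectoenzyme that cleaves choline phosphodiesters and marks newly formed oligodendrocytes, averaged under 1 ppm. It reached 1 ppm in 17 of 48 libraries, passed the filter on low values for that reason and was at 0 in 1 library.

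Some reads of these genes could belong to neighbours, because the strand setting of the counting is not given in the sources used here. In the GENCODE M21 annotation Gpr17 shares 188 exon bases with Lims2 on the opposite strand, which had a mean normalised count of 215. Bcas1 shares 440 bases with the antisense RNA Bcas1os1, which had a mean of 26.3, and Pdgfra shares 456 with the antisense RNA Gm42802. Of all 25-base words of a gene, the share found in another gene was 10.7% for Bcas1, 6.22% for Olig1, 6.14% for Pdgfra, 2.85% for Gpr17 and 1.61% for Sox10, whose closest match was its relative Sox9. It was under 1% for Cspg4, Olig2 and Enpp6.

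The values of the receptor gene Pdgfra overlapped between the lines. In High mice its normalised count ran from 266 to 568 with a median of 352, and in Low mice from 271 to 447 with a median of 329. The 568 came from High M replicate 1, the library with the lowest last exon share and among the 3 highest in pyramidal markers. The group means were 352 ± 63.6 in High F, 371 ± 85.7 in High M, 347 ± 58.2 in Low F and 324 ± 42.1 in Low M (SD, n = 12 each). The lines overlapped over most of their range, and the Low median was exceeded in 15 of 24 mice of the High line.

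For Cspg4 the High values ran from 153 to 264 with a median of 209.5 and the Low values from 149 to 295 with a median of 208.5. Group means were 211 ± 20.9, 204 ± 35.6, 222 ± 35.3 and 195 ± 22.5 in High F, High M, Low F and Low M. The Low median was exceeded in 12 of 24 mice of the High line. By gender, 19 of 24 F mice lay above the M median of 199, with an F median of 217.5.

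Of the transcription factors, Olig1 ran from 673 to 1285 in High mice (median 793.5) and from 565 to 994 in Low mice (median 752.5), with 18 of 24 mice of the High line beyond the median of Low. Group means were 810 ± 83.9, 833 ± 164, 793 ± 103 and 750 ± 98.4, in the same order. Olig2 ran from 140 to 308 in High (median 183) and from 128 to 262 in Low (median 195.5), with group means of 194 ± 30.1, 189 ± 41.3, 195 ± 38.5 and 191 ± 35.1. The highest Olig1 value, 1285, and the highest Olig2 value, 308, came from the same mouse, High M replicate 5. Sox10, which in mature cells also drives myelin genes, ran from 145 to 272 in High (median 216) and from 177 to 304 in Low (median 233), with 10 of 24 mice of the High line beyond the median of Low. Its group means were 217 ± 35.8, 216 ± 34.8, 238 ± 28.8 and 228 ± 30.9.

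Among the genes of the step towards myelin, Gpr17, a receptor on the surface of committed precursors, ran from 368 to 708 in High (median 554) and from 376 to 777 in Low (median 542.5). Its group means were 588 ± 78.9 in High F, 537 ± 104 in High M, 584 ± 120 in Low F and 516 ± 91.9 in Low M, so that F was the higher gender in both lines. Bcas1, a cytoplasmic protein of cells that are starting to myelinate and of myelin itself, ran from 379 to 716 in High (median 514.5) and from 413 to 703 in Low (median 577), with group means of 538 ± 105, 500.1 ± 72.6, 570 ± 67.2 and 555 ± 92.7. The Low median of Bcas1 was exceeded in 5 of 24 High mice, that of Enpp6 in 12 of 24. Enpp6 values ran from 0 to 21 in High and from 5 to 28 in Low, with a median of 11.5 in both and a mean of 11.7 ± 4.81 against 12.8 ± 5.08. The ranges of the lines overlapped for all 8 genes.

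**Figure D1:**
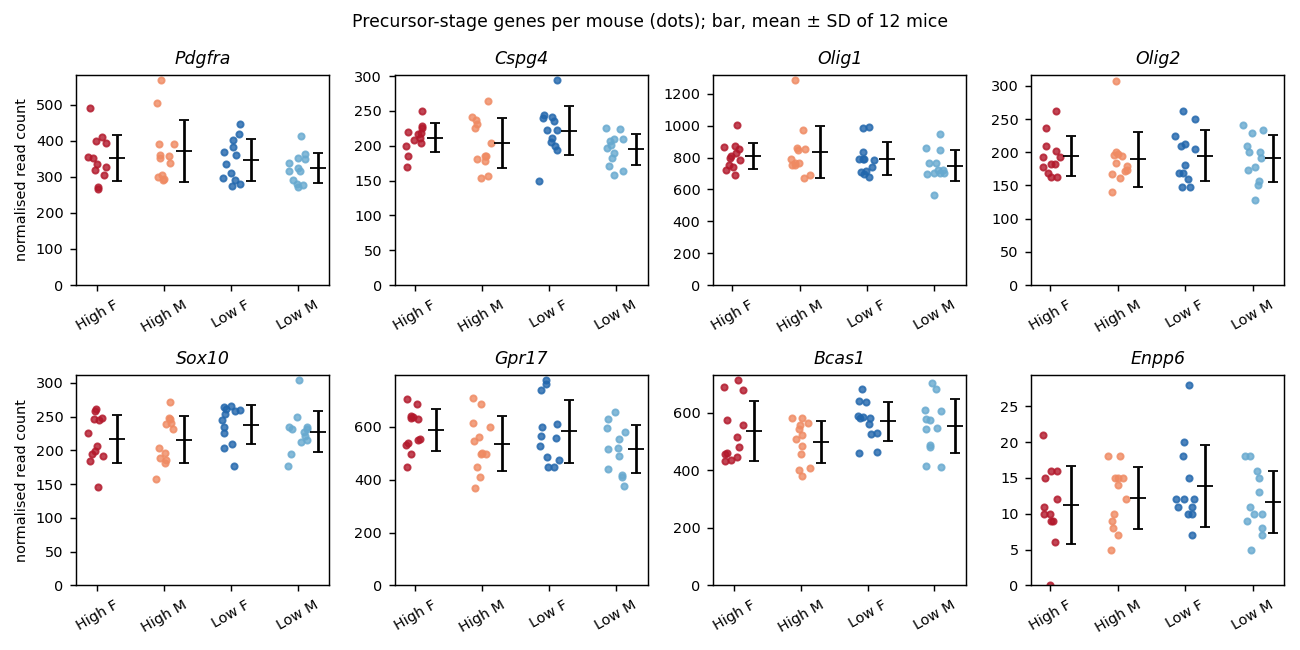
Normalised read count (vertical axis, linear, from 0) of each of the 8 genes in each mouse (dots) by group (horizontal axis), with the mean ± SD of the 12 mice as a bar. The groups overlap in every panel, and High M replicate 5 is the single high dot in Olig1 (1285) and Olig2 (308).

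Against this spread, none of the 8 genes passed the test between the lines. In limma with Benjamini-Hochberg adjustment over all 15350 genes tested, 0 of 8 were called at an adjusted p under 0.05, where 0.28% of all genes were called. At an unadjusted p under 0.05 the count was 0 of 8, against 9.07% of all genes. The largest log2 differences, High minus Low, were -0.12 ± 0.064 (SE) for Bcas1 (adjusted p = 0.591) and -0.11 ± 0.061 for Sox10 (adjusted p = 0.609), both lower in High. Pdgfra differed by 0.09 ± 0.069 (adjusted p = 0.742) and Olig1 by 0.09 ± 0.055 (adjusted p = 0.671), both higher in High, but on exons other than the last the Pdgfra difference was -0.0019.

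The intervals give the precision of these values on the scale of the test. They rest on the spread between these mice, which may be related, and so do not bound an effect of selection. The 95% interval of the High to Low ratio was 0.841 to 1.01 for Bcas1, 0.851 to 1.01 for Sox10, 0.969 to 1.17 for Pdgfra and 0.985 to 1.15 for Olig1. For Cspg4, Olig2 and Gpr17 the log2 differences were -0.0033, -0.0037 and 0.04, with ratio intervals of 0.920 to 1.08, 0.902 to 1.10 and 0.928 to 1.14. Enpp6 was the least precise, at -0.09 ± 0.115 with a ratio interval of 0.800 to 1.10. The constant added before taking logs is large beside its low counts and understates their ratio. The Enpp6 interval therefore does not bound the ratio of its counts. A total of 3 genes lay above 0 and 5 below, with a median of -0.0035, and the median over all genes tested was -0.0028.

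Within the genders, 0 of 8 genes were called in F mice (0.0261% of all genes) and 0 of 8 in M mice, where 0 of 15350 genes (0.0%) were called. At an unadjusted p under 0.05, limma gave 719 genes in F and 1064 in M, none of them among the 8. The largest values in M mice were 0.17 ± 0.098 for Pdgfra (adjusted p = 0.765), 0.14 ± 0.078 for Olig1 (adjusted p = 0.759) and -0.14 ± 0.091 for Bcas1 (adjusted p = 0.788). In F mice they were -0.22 ± 0.163 for Enpp6 and -0.14 ± 0.087 for Sox10 (both adjusted p = 1.00). The line difference was not shown to depend on gender: the limma interaction called 0 of 8 genes and 0 of all genes (0.0%), with 368 of all genes and 0 of the 8 at an unadjusted p under 0.05. The most distant from 0 was Enpp6 at -0.26 ± 0.230 (adjusted p = 1.00).

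All 8 genes had a positive F minus M difference, and none passed the test. Several of the 8 vary together between mice, as described further on, so 8 of 8 does not count separate findings. The medians of Olig2 (187.5) and of Enpp6 (11.5) were equal in F and M. In limma 0 of 8 were called, where 0.0782% of all genes were, and 2 of 8 had an unadjusted p under 0.05, as did 4.21% of all genes. Gpr17 was 0.16 ± 0.073 higher in F on the log2 scale (unadjusted p = 0.0355, adjusted p = 0.982), with 18 of 24 F mice above the M median of 520. Cspg4 was 0.12 ± 0.059 higher (unadjusted p = 0.048, adjusted p = 0.982). The other 6 lay between 0.01 and 0.07. The median of the 8 was 0.04, against -0.0036 over all genes tested. Within the lineage, 18 of 20 myelin genes (median 0.09) and 9 of 13 other precursor markers (0.04) also lay above 0. So did 6 of 11 markers of committed and newly formed cells (0.0017) and 13 of 27 lineage regulators (-0.0086). Outside it, 10 of 11 medium spiny genes (0.02), 9 of 12 astrocyte genes (0.04) and 7 of 10 endothelial genes (0.02) lay above 0. Fewer did so among microglial (3 of 13, -0.04), ependymal and choroid plexus (2 of 6, -0.21) and neuroblast genes (3 of 7, -0.045). Mitogen signalling (9 of 17, 0.0039), cell cycle (5 of 10, 0.0024) and pyramidal genes (2 of 4, 0.0033) lay in between. Pericytes also make Cspg4, and leptomeningeal fibroblasts Pdgfra. The joint list of pericyte and smooth muscle markers had a median F minus M difference of 0.18, with 9 of 12 members above 0. The leptomeningeal list had 0.19, with 10 of 11 above 0, and none was called in either. In the joint list Acta2 measured 281 ± 153 in F and 213 ± 125 in M, and Vtn 677 ± 192 and 585 ± 147. Pdgfrb, on the same list, measured 319 ± 59.4 in F and 325 ± 78.1 in M. Summed counts of the pericyte and smooth muscle list ran from 2543 to 4220 in F and 2434 to 4098 in M. Those of the leptomeningeal list ran from 731 to 1488 and 685 to 1266, and no marker of either list was at 0 throughout. The part of these cells in the gender values was not tested.

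**Figure D2:**
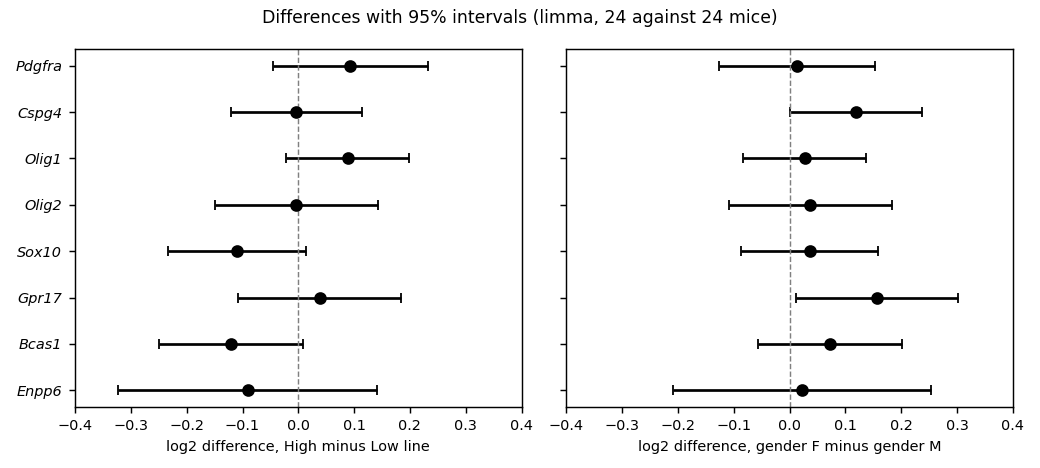
Log2 difference (horizontal axis) of each of the 8 genes (vertical axis) between the lines (left) and between the genders (right), points for the limma estimate and bars for its 95% interval, 24 against 24 mice. Every interval between the lines crosses 0, and between the genders those of Cspg4 and Gpr17 lie just above 0 before adjustment.

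The spread between mice was compared as well, and no gene passed. Absolute deviations from the group median of the log2 value averaged 0.19 in High F and 0.21 in High M for Pdgfra, against 0.20 in Low F and 0.14 in Low M. In the same limma model on these deviations 0 of 8 genes were called between the lines (0.0586% of all genes) and 0 of 8 between the genders (0.0%, with 594 of all genes at an unadjusted p under 0.05). The largest line difference was that of Sox10, 0.07 ± 0.040 wider in High (adjusted p = 0.998).

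The use of exons within the genes was compared by limma's diffSplice. It called 0 of the 7 genes with more than 1 exon, and 0.502% of all 14150 genes. The smallest p of any of their exons was that of the Cspg4 exon starting at 56740662 on chromosome 9 (mm9), at 2.17 ± 2.32 in High and 3.04 ± 1.88 in Low, with an unadjusted p of 0.0307 and an adjusted p of 1.

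The rest of the lineage gave the setting for these values. Of 13 other precursor markers, 6 lay above and 7 below 0 in High minus Low with a median of -0.0008, and 0 were called or had an unadjusted p under 0.05. The nearest were Rlbp1, which binds retinaldehyde, at 99.1 ± 25.6 against 91.2 ± 24.3, and Sox6, which keeps precursors undifferentiated, at 82.5 ± 21.9 against 87.0 ± 16.0 (adjusted p = 0.803 and 0.807, limma). Of 11 tested markers of committed and newly formed cells 4 lay above 0 (median of the list -0.05), none was called, and an unadjusted p under 0.05 was found for 2. These were Cemip2, a cell-surface protein of hyaluronan turnover (196 ± 33.7 against 172 ± 26.6), and Kif19a, a kinesin (29.2 ± 9.13 against 35.5 ± 10.9). Myelin genes stood lower in High for 19 of 20 tested members, with a median of -0.19. Limma called 0 of them, and 9 reached an unadjusted p under 0.05, against shares of 0.28% and 9.07% over all genes tested. The members were not shown to vary independently between mice, so 19 and 9 do not count separate findings. Their mean differed by -0.17 between the lines, with an SD of 0.29 within groups. First by p was Opalin, a membrane protein of myelinating cells, at 96.6 ± 33.1 against 126 ± 31.4. Ugt8a, an enzyme of myelin lipids, followed at 145 ± 48.5 against 184 ± 49.1.

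When the mean of the myelin genes was subtracted from each gene, 0 of 8 precursor genes were called between the lines (0.391% of all genes) and 0 of 8 between the genders (0.0456%). The line differences were 0.26 ± 0.097 for Pdgfra (adjusted p = 0.114) and 0.26 ± 0.090 for Olig1 (adjusted p = 0.109, limma), against 0.06 for Sox10 and 0.05 for Bcas1. The median of all genes was 0.17 on this scale, since the myelin mean itself differed by -0.17, with an SD of 0.29 within groups.

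Upstream of the 8 genes, 17 ligands and receptors of PDGF and other mitogens split 10 above and 7 below 0 (median 0.01). None was called, and 1 had an unadjusted p under 0.05: Pdgfd, a PDGF ligand, at 16.1 ± 5.41 against 20.8 ± 6.38 (adjusted p = 0.307, limma). Pdgfa, the main ligand of the Pdgfra receptor, measured 460 ± 44.9 against 471 ± 48.6, and the second gene by p was Bmpr1b, a BMP receptor, at 144 ± 24.6 against 134 ± 20.6. Of 27 transcription regulators of the lineage, 11 lay above and 16 below 0 (median -0.02), with 0 called and 3 at an unadjusted p under 0.05. The first of these were the ETS factor Etv5 at 619 ± 199 against 745 ± 134 and the zinc-finger protein gene Zfp536 at 48.7 ± 12.4 against 57.4 ± 12.9. Of 10 tested cell cycle genes 6 lay above 0 and 1 was called: Pcna, the clamp of DNA polymerases, rose in High to 368 ± 76.1 from 278 ± 56.8 (log2 difference 0.39 ± 0.085, adjusted p = 0.0233, limma). Reads of Pcna could be split with its processed copy Pcna-ps2, which measured 15.5 ± 12.9 in High and 34.6 ± 13.4 in Low, and the part of such splitting in the Pcna value was not tested. No other cell cycle gene was called, and the second by p, Ccna2, cyclin A2, measured 219 ± 59.8 against 249 ± 47.9.

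Other cell types had no called gene between the lines. Members above 0 were 11 of 12 for astrocytes (median 0.07), 5 of 13 for microglia (-0.06), 5 of 12 for pericytes and smooth muscle (-0.01), 2 of 10 for endothelium (-0.05) and 8 of 11 for leptomeningeal fibroblasts (0.09). They were 3 of 4 for pyramidal neurons (0.03), 5 of 11 for medium spiny neurons (-0.01), 5 of 6 for ependyma and choroid plexus (0.08) and 3 of 7 for neuroblasts (-0.0036).

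Some of the 8 genes varied together from mouse to mouse, with 12 of 28 pairs past the threshold. Pearson's r was computed on log2 values after the 4 group means had been removed, with a permutation test of 100000 resamples within groups and p-values adjusted over the 28 pairs. Of the 28 pairs 27 had r above 0 (median 0.30), and 15 had r above 0 in each of the 4 groups. Over all 117803575 pairs of tested genes the median was 0.003 and 50.5% were above 0. Past an adjusted p of 0.05 were 12 pairs, with r of at least 0.36, a value that 10.3% of all gene pairs reached. By Spearman's rho 12 pairs passed as well, 11 of them the same.

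The highest value was that of the receptors Pdgfra and Gpr17, with r = 0.57 (rho = 0.55, adjusted permutation p = 0.0014). Without the 2 mice farthest from the median of Pdgfra it was 0.52, and it ran from 0.49 to 0.68 over the 4 groups. Next came the neighbours Olig1 and Olig2 with r = 0.56 (rho = 0.56, adjusted permutation p = 0.00355). Without High M replicate 5, where both genes peaked, and Low M replicate 4 it was 0.45, and it was 0.82 in High M against 0.31 in Low M. Olig2 ranked 8 among 15349 genes by its r with Olig1, and Olig1 ranked 7 for Olig2. For the pair with the highest r the partners stood further down: Gpr17 ranked 1074 for Pdgfra and Pdgfra 408 for Gpr17, and its r of 0.57 lay under the 95th percentile of 0.61 over all genes for Pdgfra.

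Gpr17 also varied with Olig1 (r = 0.51), Olig2 (0.51) and Sox10 (0.40), and Olig2 with Cspg4 (0.47), Pdgfra (0.42) and Sox10 (0.41). Pdgfra varied with Sox10 (0.45) and Enpp6 (0.36). Sox10 varied with Bcas1 (0.48) and Enpp6 (0.38). Each of the 12 pairs was repeated without the 2 mice farthest from the median of the first-named gene. Olig2 with Sox10 then had r = 0.28 (permutation p = 0.0639) and Sox10 with Enpp6 r = 0.12 (p = 0.437). By rho over all mice the former passed (adjusted permutation p = 0.0349) and the latter did not (0.199). Cspg4 with Bcas1, at -0.02, was the 1 pair below 0, and Cspg4 passed the threshold with Olig2 alone.

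No pair was shown to differ between the lines. Among 28 permutation tests of the difference in r the smallest p was 0.0483, for Cspg4 and Enpp6 (-0.16 in High and 0.39 in Low), with an adjusted p of 0.922.

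**Figure D3:**
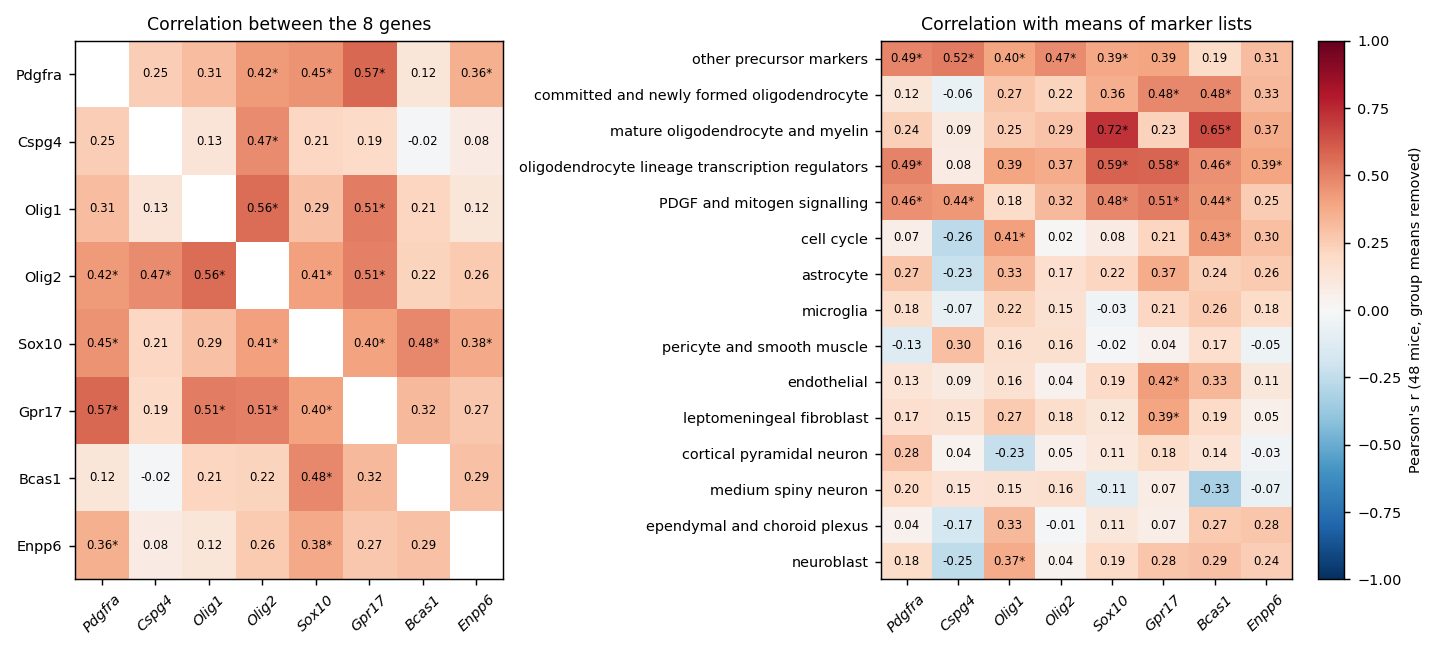
Pearson's r over 48 mice after removal of group means (colour scale from -1 to 1, values printed), between the 8 genes (left) and between each gene (columns) and the mean of each marker list (rows, right). Asterisks mark an adjusted permutation p under 0.05, over 28 pairs on the left and 120 relations on the right, where Sox10 and Bcas1 reach 0.72 and 0.65 with myelin genes and Cspg4 0.52 with other precursor markers.

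Sox10 and Bcas1 passed with myelin genes, and Cspg4, Pdgfra, Olig2, Olig1 and Sox10 with other precursor markers. Each of the 8 genes was correlated with the mean of each of 15 lists, 120 relations in all, and 24 passed an adjusted permutation p of 0.05, all with r above 0. Over all tested genes and lists, 13.8% reached the lowest absolute r among the 24. Sox10 (r = 0.72, 0.63 without the 2 farthest mice) and Bcas1 (0.65, and 0.60) varied with the myelin genes, both with an adjusted permutation p of 6e-04, from the smallest p that the resamples can give. Only 0.248% of all genes had an absolute r with that list as high as that of Bcas1, the list's own members included. For Pdgfra, Cspg4, Olig1, Olig2, Gpr17 and Enpp6 the r with myelin genes was 0.24, 0.09, 0.25, 0.29, 0.23 and 0.37, none past the threshold. The difference between these values was not tested.

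Cspg4 (0.52), Pdgfra (0.49), Olig2 (0.47), Olig1 (0.40) and Sox10 (0.39) varied with the 13 other precursor markers, with adjusted permutation p-values of 0.00514, 0.00456, 0.0151, 0.0368 and 0.0258. By rho the relation of Olig1 did not pass (adjusted permutation p = 0.0712). An absolute r as high as that of Sox10 was found for 2.4% of all genes. Gpr17 (0.39), Enpp6 (0.31) and Bcas1 (0.19) did not pass with this list, Gpr17 with an adjusted permutation p of 0.0525. Without the 3 libraries highest in pyramidal markers r was 0.36 for Sox10 and this list (adjusted permutation p = 0.0533). Gpr17 (0.48) and Bcas1 (0.48) varied with the markers of committed and newly formed cells, at or above the lower of which lay 1.06% of all genes. Lineage regulators varied with Sox10 (0.59), Gpr17 (0.58), Pdgfra (0.49), Bcas1 (0.46) and Enpp6 (0.39), but the lowest of these r was reached by 19.8% of all genes. Mitogen signalling genes varied with Gpr17 (0.51), Sox10 (0.48), Pdgfra (0.46), Bcas1 (0.44) and Cspg4 (0.44), against 4.7% of all genes. Some lists share members, among them Sox6, Nkx2-2, Tcf7l2 and Bmp4.

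Outside the lineage 5 relations passed: Olig1 with cell cycle (0.41) and neuroblast genes (0.37), Bcas1 with cell cycle genes (0.43), and Gpr17 with endothelial (0.42) and leptomeningeal genes (0.39). For cell cycle and neuroblast genes the lowest passing r was reached by 21.9% and 29.1% of all genes, and for endothelial and leptomeningeal genes by 2.14% and 0.756%. By rho, the relations of Olig1 with cell cycle and with neuroblast genes did not pass (adjusted permutation p = 0.0513 and 0.0984). Pdgfra had r = 0.17 with leptomeningeal genes and Cspg4 had r = 0.30 with pericyte and smooth muscle genes, neither past the threshold. Astrocyte, microglial, pyramidal, medium spiny and ependymal lists had none past it with any of the 8.

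**Figure D4:**
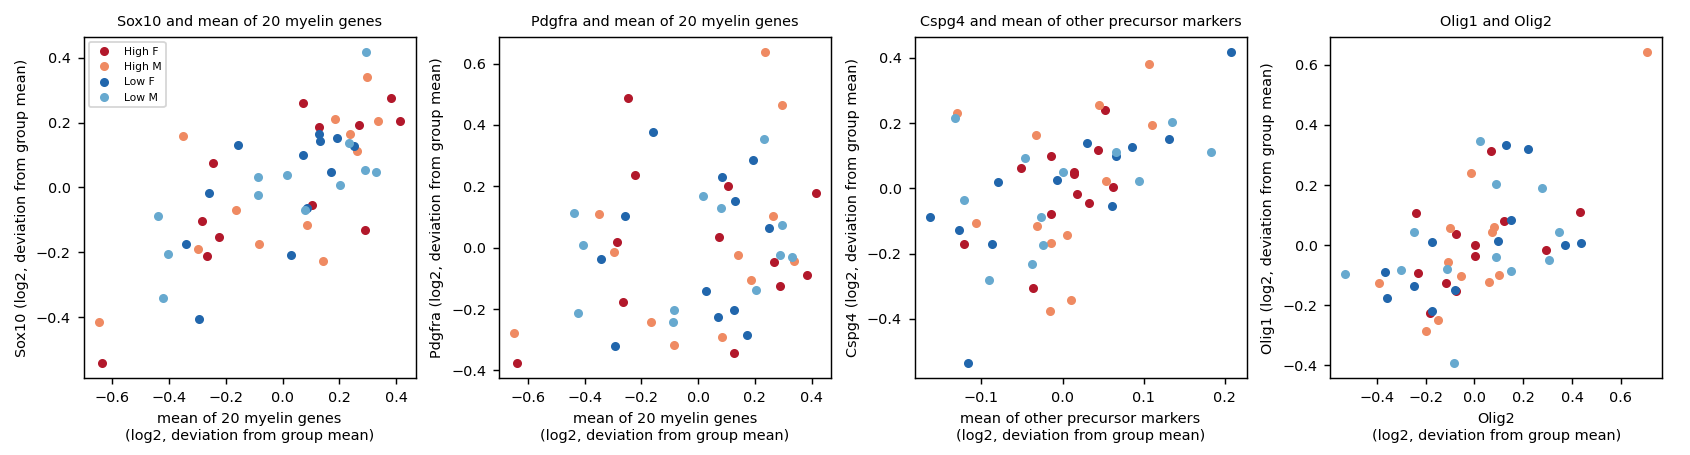
Log2 values as deviations from the group mean, 1 dot per mouse coloured by group: Sox10 (r = 0.72) and Pdgfra (r = 0.24) against the mean of 20 myelin genes, Cspg4 against the mean of 13 other precursor markers (r = 0.52), and Olig1 against Olig2 (r = 0.56). Sox10 values lie along a rising band with the myelin mean, and High M replicate 5 sits alone at the top right of the last panel.

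Single genes most like each member were listed next. Among 11855 other genes at a mean of 5 ppm or more, those with the highest r to Bcas1 included Mbp (0.70) and Mobp (0.68), which encode major myelin proteins. For Sox10 they were Tspan2 (0.82), a tetraspanin of oligodendrocytes, Nkain1 (0.76) and Tmbim1 (0.73). For Cspg4 the first was Matn4 (0.71), a matrilin on the list of precursor markers, then Ubap2 (0.65) and Zfp710 (0.64).

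The nearest genes to the other members were not on any list. For Pdgfra they were Anks1b (0.85), Unc13c (0.85), both known from neuronal synapses, and ENSMUSG00000090648 (0.85). For Gpr17 they were Zc3h7b (0.74), Mlec (0.73) and Chtf8 (0.73). For Olig1 they were Ube2l3 (0.73), ENSMUSG00000085425 (0.62) and Rab3c (0.62), and for Olig2 Zcchc24 (0.66), Sp2 (0.58) and Vti1a (0.58). For Enpp6 they were Ppa1 (0.56), Hapln1 (0.54) and Snx18 (0.54). Pdgfra and Gpr17 had wide distributions of r, whose 95th percentile over all genes was 0.61 and 0.52, against 0.28 for Bcas1 and 0.34 for Olig2.

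With the share of a library's exon signal that fell in last exons, 3 of the 8 genes passed the threshold, Pdgfra, Gpr17 and Cspg4. That count lies close to the share over all genes, given below. The share averaged 54.7% in High and 54.3% in Low, and 54.4% in F and 54.6% in M. Its r was -0.67 with Pdgfra and -0.58 with Gpr17 (adjusted permutation p = 0.00024 for both, over 16 relations), and -0.40 with Cspg4 (adjusted p = 0.045, 0.0739 by rho), and 33.5% of all genes had an absolute r as high as that of Cspg4. Olig2, Sox10, Olig1, Bcas1 and Enpp6 had r of -0.34, -0.28, -0.11, 0.07 and -0.04, none past the threshold. The deposited column total passed the threshold with none of the 8. With the share as a covariate, an alternative chosen after seeing the data, r fell to 0.31 for Pdgfra and Gpr17 (adjusted permutation p = 0.083), 0.28 for Pdgfra and Olig2 (0.109) and 0.30 for Sox10 and Gpr17 (0.0769). Gpr17 with Bcas1 came to 0.45 and passed (adjusted permutation p = 0.00952), while Olig1 with Olig2 stayed past the threshold, as did 8 other pairs.

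**Figure D5:**
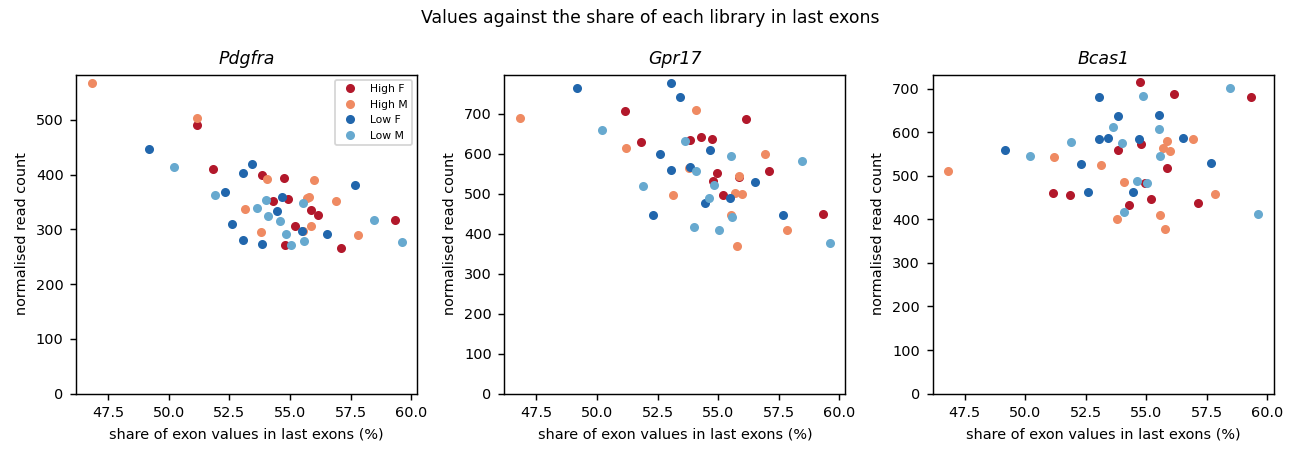
Normalised read count (vertical axis, linear) of Pdgfra, Gpr17 and Bcas1 in each mouse against the percentage of the library's exon signal in last exons (horizontal axis), dots coloured by group. The r values are -0.67 for Pdgfra, -0.58 for Gpr17 and 0.07 for Bcas1, computed on log2 values with group means removed.

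With the myelin mean as a covariate 7 of 28 pairs passed. Sox10 with Bcas1 came to 0.02 (adjusted permutation p = 0.903) and Sox10 with Enpp6 to 0.17 (0.426). Pdgfra with Enpp6 (0.30), Olig2 with Sox10 (0.31) and Sox10 with Gpr17 (0.35) also missed the threshold. Without the 3 libraries highest in pyramidal markers 13 pairs passed, Pdgfra with Olig1 being added at r = 0.45 against 0.31 over all mice (adjusted permutation p = 0.00964). Pdgfra with Sox10, Cspg4 with Olig2, Olig1 with Olig2, Olig1 with Gpr17 and Olig2 with Gpr17 passed under each of the 6 alternatives run for the pairs.

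Whole libraries stood out in several genes at once. High M replicate 5 and Low F replicate 12 were each among the 5 highest of 48 in 5 of the 8 genes. Low M replicate 12 was among the 5 lowest in 6 of the 8, with 128 for Olig2, 376 for Gpr17, 177 for Sox10 and 413 for Bcas1. It also had the highest last exon share of all libraries, 59.6%, against 51.2% in High M replicate 5 and 53.4% in Low F replicate 12. The part of this share in these values was not tested. Summed over the 8 genes, libraries ran from 2609 to 3391 in High F, 2370 to 3797 in High M, 2486 to 3526 in Low F and 2235 to 3201 in Low M.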

How the data were processed

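Poly(A) RNA-seq libraries of 48 mice, 12 in each of 4 groups, were analysed. The deposited values are of unit score: normalised read counts per gene and per exon that the authors rounded to whole numbers, so no count model was used. Per the submitters' processing notes CASAVA, FastQC, STAR 2.4.0, R 3.0.2, edgeR 3.4.2 and mm9 were used; the normalisation method, the annotation and strandedness are not given in the sources used here. Depth before normalisation is unknown, and rounding blurs genes near 0 such as Enpp6.

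Here, the 15350 genes that reached 1 ppm in 12 or more libraries were tested on log2(value + 0.5 ppm) with limma 3.58.1 in R 4.3.3 (trend, one mean per group, Benjamini-Hochberg over all genes tested); a log2 difference on this scale understates changes of low genes. Exons were taken at 0.1 ppm or more with a pseudocount of 0.05 ppm. Correlations used Python with scipy and two-sided permutation within groups (100000 resamples, and 20000 without the 2 farthest mice). In simulated data with 200 genes changed between the lines, log2 changes of 0.3, 0.5 and 1 were recovered in 68.7%, 86.6% and 100.0% of cases. Symbols came from GENCODE M21 by gene ID (32897 of 37620 matched). Of 200 list symbols 198 matched a row; Lhfpl3 and 9630013A20Rik did not and were left out. Lengths per kilobase are GENCODE M21 exon unions on GRCm38, since the exon table gives exon starts only, and differ from the planned use of the table's own exons. Alternatives covered the pseudocount, filter, scaling, library weights, cortical markers, last exons and left-out libraries.

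The members and lists were chosen with earlier results of these data known. Named were all 8 members, the called genes of each lineage list or its 2 smallest p, the 3 most alike genes per member and the exon with the smallest p. One of the most alike genes is not reported here.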

Additional observations from a re-analysis of the deposited data

How the results depend on the processing

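Under 12 alternatives in the line, gender or interaction comparisons, none of the 8 genes was called where tested (smallest adjusted p 0.371, limma). Of 460 such values 440 kept their sign. A gene under the filter of a setting was not tested in it, such as Olig1, with 1 exon, on exons other than the last. The genes called between the lines, 43, were 25 with a filter of 5 ppm in 24 libraries, 80 with library weights, 4 on exons other than the last and 77 with the last exon share as covariate (chosen after seeing the data). In F mice they were 2 without a filter, 7, 1 and 2 with the last 3 of these settings, and in the gender comparison 7 on exons other than the last. Between-mouse spread gave 28 genes (line) and 1 (gender) around group means, and 1 (gender) with a pseudocount of 2 ppm. Exon usage gave 35 genes at 0.5 ppm and 33 with a pseudocount of 0.2 ppm. Passing pairs numbered 7 with the myelin mean as covariate.

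Signs turned only for differences inside their error. Between the lines Pdgfra was -0.0019 on exons other than the last; Cspg4 0.0030 after quantile normalisation and 0.0074 with the last exon share; Olig2 0.0007 after quantile normalisation, 0.0096 with weights, 0.0031 without High M replicate 1, 0.0041 without the 3 libraries highest in pyramidal markers and 0.0080 with the last exon share. In F mice Pdgfra was -0.19 on exons other than the last. In M mice without the 3 libraries Olig2 was 0.0018, Gpr17 -0.0032 and Enpp6 -0.0159. The interaction was 0.0529 for Sox10 and -0.0812 for Bcas1 on exons other than the last, and for Gpr17 0.0426 with weights, 0.0092 without High M replicate 1, 0.0288 without the 3 libraries and 0.0635 with the last exon share. F minus M of Enpp6 was -0.0126 with a pseudocount of 0.1 ppm and -0.0529 with weights. Cspg4 with Bcas1 was 0.0234 without removal of group means and 0.0099 with the last exon share, where Pdgfra with Cspg4 was -0.0248 and Cspg4 with Gpr17 -0.0536; Pdgfra with Bcas1 was -0.0402 with the myelin mean. The cause of these shifts was not tested.

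Of 120 repeats of the list relations 109 stayed past the threshold and 11 did not, 6 of them with the last exon share: Sox10 with other precursor markers (0.33), Pdgfra, Cspg4 and Gpr17 with mitogen genes (0.20, 0.30 and 0.32), and Gpr17 with endothelial and leptomeningeal genes (0.34 and 0.37). Depth limits Enpp6, whose values of 0 to 28 carry rounding steps of 1.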
